A study of Homo sapiens with 36 samples.

Results

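Mitochondrial ribosomal protein genes were chosen by symbol: every protein-coding gene whose NCBI symbol is MRPL or MRPS followed by a number and at most a letter. RefSeq holds 77 such genes, and 76 of them were measured in all 3 experiments, among 18078 genes measured in any. MRPS24 is not analysed here. Of the 76, 27 carry an MRPS name and 49 an MRPL name. MRPS30 and MRPS18A sit in the large subunit of the assembled ribosome despite their names, so that the subunits hold 25 and 51 of these proteins by structure. Gene identifiers are NCBI GeneIDs, and no member was chosen for a measured value.

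The study asked how loss of KDM6A and KDM6B activity changes the response of cisplatin-resistant testicular germ cell tumor cells to cisplatin. NT2/D1-A4 and 2102EP-C1 are cisplatin-resistant derivatives of the human embryonal carcinoma lines NT2/D1 and 2102EP, and each stands for a single resistant derivative. Cisplatin is a DNA crosslinking drug, and GSK-J4 is an inhibitor of KDM6A and KDM6B, the demethylases that remove trimethylation from lysine 27 of histone H3. In each line, 3 control libraries (VC), 3 after 0.5 µM cisplatin for 6 h, 3 after 1 µM GSK-J4 for 3 days and 3 after GSK-J4 followed by cisplatin (Combination) were sequenced. A further experiment in 2102EP-C1 compared the empty lentiviral vector pLKO.1 with shRNAs against both demethylases (sh6A+6B), each without and with cisplatin, with 3 libraries an arm. Cells were harvested 24 h after cisplatin. All arms of an experiment share the resistant background, and the arms of the knockdown experiment also share viral transduction.

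Mitochondria translate the few proteins of their own genome, all core parts of the respiratory chain or ATP synthase, on a ribosome whose RNAs are mitochondrially encoded but whose proteins are all made from nuclear genes and imported. The small subunit binds the mRNA and reads the codon; the large subunit forms the peptide bond, passes the nascent protein toward the inner membrane and carries a stalk that recruits translation factors. Part of the proteins are classed with families of bacterial ribosomes (45 of the 76 here) and the rest as mitochondria-specific (31 of the 76). The latter class includes MRPS18A and MRPS18B, paralogs of MRPS18C of the bacterial class, and MRPL58 of the release factor family. It is therefore not a list of proteins without bacterial relatives.

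The libraries held a median of 35.3 M counted reads (M, 1000000 reads) in NT2/D1-A4 (26.8 to 49.5 M), 37.2 M in 2102EP-C1 with GSK-J4 (30.3 to 53.6 M) and 88.4 M in the knockdown experiment (79.4 to 100.9 M). The lowest member count in any library was 36 reads, for MRPS28, so that none of the 76 was at or near zero. Values are log2 counts per 1000000 counted reads (CPM), and a gene was called where the limma test adjusted over all genes of the experiment gave p under 0.05. In sh6A+6B cells the KDM6A level was 6.14, 6.09 and 6.20 log2 CPM against 7.16, 7.17 and 7.15 with pLKO.1, and that of KDM6B was 3.51, 3.61 and 3.75 against 4.61, 4.66 and 4.63. Both targets were therefore lower in every knockdown library. KDM6B rose by 0.88 (log2) with GSK-J4 in NT2/D1-A4 and by 0.81 in 2102EP-C1, and KDM6A was called in neither line. Of 10 embryonal carcinoma markers 9 were measured, and their summed level was lower in every other arm than in control, with no overlap. In NT2/D1-A4 it was 13.02 to 13.05 (log2) in control and 12.57 to 12.69 in Combination. In 2102EP-C1 it was 13.37 to 13.41 and 13.05 to 13.12. With pLKO.1 it was 13.306 to 13.314, and 13.080 to 13.090 with sh6A+6B and cisplatin. Over all NT2/D1-A4 libraries, neural markers summed to 4.72 to 5.37, mesoderm markers to 2.33 to 3.44 and fibroblast markers to 9.92 to 10.31. The mesoderm sum was 2.33 to 2.55 in control and 3.34 to 3.44 in Combination. Of the fibroblast markers, VIM was at 10.20 in control, COL1A2 at 4.18 and COL1A1 at 2.55. Of 4 endoderm markers AFP alone was measured there, at −2.50 to −1.65 in control and −0.58 to −0.55 with GSK-J4. No trophoblast marker was measured. The fibroblast sum was 6.70 to 7.12 in 2102EP-C1 with GSK-J4. The spans of 19 members overlap another measured gene, and how the counts treated strand and reads shared with pseudogenes is not given, so that these members are less certain. In such bulk RNA, fewer cells of a kind and less RNA per cell cannot be told apart.

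ETS and YY1 letters stood in a larger share of these genes' promoter windows than of other windows. A window of 300 bases, from 250 before to 50 after the RefSeq start (GRCh38.p14), was at hand for 68 of the 76 members and for 11699 other measured protein-coding genes. On either strand, the ETS motif CCGGAAG (the core bound by factors such as GABPA) stood in 29 of the 68 windows (42.6%) and in 17.6% of the others. The YY1 motif AAGATGGCG stood in 12 windows (17.6%) against 3.51% of the others, in 10 of 44 large subunit and 2 of 24 small subunit windows. The NRF1 motif GCGCATGC, whose factor drives many nuclear genes for mitochondrial proteins, stood in 6 windows (8.82%) against 5.07%. The SP1 motif GGGCGG (60.3% against 68.6%), CCAAT (29.4% against 36.6%) and the TATA motif TATAAA (2.94% against 6.25%) stood in smaller shares than in the other windows. The last letters of the ETS motif can be the opening letters of the YY1 motif, so these counts can share bases. No motif was found in 7 member windows and 2 or more kinds in 36. These shares are descriptions of the letters, no test of a difference was made, and binding was not measured.

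The windows below belong to the members with the largest rise and fall after GSK-J4 or knockdown alone in each experiment, described later, and to 2 members with 4 kinds of motif each, MRPL32 and MRPS18A. They run 5′ to 3′ along the gene's strand, and capitals mark the motifs named above on either strand. MRPL58 (largest rise with GSK-J4 in NT2/D1-A4) lies at chr17:75012420-75012719 on the plus strand, MRPS17 (largest fall there) at chr7:55951627-55951926 plus, MRPS35 (largest rise with GSK-J4 in 2102EP-C1) at chr12:27710582-27710881 plus and MRPS12 (largest fall there) at chr19:38930694-38930993 plus. MRPS31 (largest rise with sh6A+6B) lies at chr13:40771141-40771440 minus, MRPL41 (largest fall there) at chr9:137551629-137551928 plus, MRPL32 at chr7:42932126-42932425 plus and MRPS18A at chr6:43687742-43688041 minus.
MRPL58: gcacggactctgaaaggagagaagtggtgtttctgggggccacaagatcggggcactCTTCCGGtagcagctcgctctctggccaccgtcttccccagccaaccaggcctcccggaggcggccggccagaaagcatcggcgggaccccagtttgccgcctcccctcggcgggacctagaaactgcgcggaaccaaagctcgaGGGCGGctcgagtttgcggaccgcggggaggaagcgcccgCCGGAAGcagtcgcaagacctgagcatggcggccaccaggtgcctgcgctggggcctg
MRPS17: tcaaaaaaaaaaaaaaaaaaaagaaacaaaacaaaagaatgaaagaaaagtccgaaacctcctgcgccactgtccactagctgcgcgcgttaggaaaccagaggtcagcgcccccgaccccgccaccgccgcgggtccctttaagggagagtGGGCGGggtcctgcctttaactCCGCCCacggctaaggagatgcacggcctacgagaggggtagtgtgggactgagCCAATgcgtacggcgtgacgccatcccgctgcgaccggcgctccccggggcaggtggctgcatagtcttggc
MRPS35: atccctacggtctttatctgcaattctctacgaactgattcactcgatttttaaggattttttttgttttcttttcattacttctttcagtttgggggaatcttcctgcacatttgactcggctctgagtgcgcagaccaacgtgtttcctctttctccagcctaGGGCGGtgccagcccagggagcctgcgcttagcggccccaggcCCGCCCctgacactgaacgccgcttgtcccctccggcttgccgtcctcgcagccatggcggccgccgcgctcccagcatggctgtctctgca
MRPS12: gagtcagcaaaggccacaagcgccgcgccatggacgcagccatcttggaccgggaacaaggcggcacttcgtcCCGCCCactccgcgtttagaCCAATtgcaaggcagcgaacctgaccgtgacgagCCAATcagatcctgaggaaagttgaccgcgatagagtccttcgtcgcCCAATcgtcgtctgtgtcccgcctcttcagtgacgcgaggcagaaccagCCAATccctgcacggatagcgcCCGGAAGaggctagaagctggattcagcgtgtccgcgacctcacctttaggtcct
MRPS31: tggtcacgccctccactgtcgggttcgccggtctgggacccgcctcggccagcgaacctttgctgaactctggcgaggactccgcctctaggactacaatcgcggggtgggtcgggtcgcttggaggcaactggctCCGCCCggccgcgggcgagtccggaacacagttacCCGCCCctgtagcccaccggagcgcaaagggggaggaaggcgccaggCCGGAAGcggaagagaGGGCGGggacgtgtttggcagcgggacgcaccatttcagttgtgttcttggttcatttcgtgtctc
MRPL41: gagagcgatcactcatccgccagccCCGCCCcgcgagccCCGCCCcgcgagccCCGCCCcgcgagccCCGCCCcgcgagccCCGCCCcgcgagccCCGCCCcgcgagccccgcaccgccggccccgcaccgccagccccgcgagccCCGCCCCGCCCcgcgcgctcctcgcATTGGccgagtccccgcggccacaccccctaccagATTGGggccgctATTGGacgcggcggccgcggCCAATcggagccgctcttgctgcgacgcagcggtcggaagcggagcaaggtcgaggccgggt
MRPL32: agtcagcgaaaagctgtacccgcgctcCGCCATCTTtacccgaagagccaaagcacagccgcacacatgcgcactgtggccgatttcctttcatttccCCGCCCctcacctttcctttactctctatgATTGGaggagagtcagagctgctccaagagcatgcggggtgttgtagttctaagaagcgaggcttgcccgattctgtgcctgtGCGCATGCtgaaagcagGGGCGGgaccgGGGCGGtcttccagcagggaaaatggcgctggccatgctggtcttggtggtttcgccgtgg
MRPS18A: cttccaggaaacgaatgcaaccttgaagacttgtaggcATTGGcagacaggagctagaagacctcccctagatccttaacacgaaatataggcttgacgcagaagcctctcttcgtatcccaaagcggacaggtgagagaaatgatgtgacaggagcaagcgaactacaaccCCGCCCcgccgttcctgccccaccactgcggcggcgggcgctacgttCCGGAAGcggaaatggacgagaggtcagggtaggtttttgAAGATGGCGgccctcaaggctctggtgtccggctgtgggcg

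ETS letters were found in the windows of MRPL58, which rose in NT2/D1-A4, and of MRPS12, which fell in 2102EP-C1, as well as in those of MRPS31 and MRPS18A. Neither the MRPS17 nor the MRPS35 window held them. The MRPL41 window held the SP1 letters 8 times and CCAAT 4 times, and the MRPS35 window held SP1 letters alone. A rise or a fall therefore did not go with a single motif among these windows, and no test of that was made.

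Levels of the members differed widely within a cell line although nearly all of the proteins are present in a single copy per ribosome. Per kilobase of the Ensembl canonical transcript, the control level had a median of 5.09 (log2 CPM per kb) in NT2/D1-A4, from 1.41 to 8.73, and 5.17 in 2102EP-C1, from 1.22 to 8.81. In pLKO.1 cells the median was 5.06, from 1.07 to 8.98. MRPL51 was the highest in all 3 experiments. MRPL3, MRPS35 and MRPS15 were among the 6 highest in each, with MRPL3 at 7.72 log2 CPM per kb in NT2/D1-A4 and 7.03 in 2102EP-C1. MRPS28 was the lowest in all 3, at 1.41 ± 0.15, 1.22 ± 0.18 and 1.07 ± 0.15 (SD, n = 3). MRPS18C (2.44 and 2.57) followed it in the GSK-J4 experiments and MRPS11 (2.96) in pLKO.1 cells. In pLKO.1 cells, of the same line as the 2.57, MRPS18C was at 4.67, and MRPS18A was at 4.49 against 3.46. Both overlap another measured gene (ABRAXAS1 and RSPH9). MRPL24 and MRPS25, which also overlap one, were at 4.79 and 3.25 in pLKO.1 cells against 4.79 and 3.21. Of the mitochondrially encoded mRNAs, ND6 was at 5.80 log2 CPM in pLKO.1 cells against 7.85 in control of the GSK-J4 experiment of this line. ND4 was at 11.30 against 11.32 and COX1 at 10.50 against 10.38. Whether the experiments were counted alike, for instance in strand, was not tested. MRPL51 stood clear of the next member by more than the spread of the libraries in each experiment, as did MRPS28 at the other end. In NT2/D1-A4 the neighbours MRPS35 (7.03 to 7.07) and MRPL20 (7.02 to 7.05) overlapped. A level per kilobase depends on the transcript model: MRPL42, among the 4 lowest in pLKO.1 cells at 3.50, has a model of 15557 bases, against a median of 1242 over the members.

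Over all libraries of each GSK-J4 experiment, cisplatin alone gave 2 calls among the members in NT2/D1-A4 and 1 in 2102EP-C1, and some other fits gave more. In NT2/D1-A4, 2 members fell and none rose, where 3.58% of all genes fell and 5.85% rose. MRPL47 was at 7.28, 7.26 and 7.26 log2 CPM in control and at 7.14, 7.11 and 7.14 after cisplatin (log2 fold change −0.14, SE 0.04, limma adjusted p = 0.033), with no overlap. MRPL20 was at 6.50, 6.53 and 6.51 in control and at 6.38, 6.37 and 6.39 after cisplatin (−0.14, SE 0.03, limma adjusted p = 0.0161). In 2102EP-C1, MRPL20 alone was called, at 6.14, 6.11 and 6.07 in control and 5.98, 5.98 and 5.94 after cisplatin (−0.14, SE 0.04, limma adjusted p = 0.028), where 1.02% of genes fell and 3.06% rose. Of the 76 estimates, 60 lay below zero in NT2/D1-A4 (median −0.06) and 69 in 2102EP-C1 (median −0.06), while the median of all genes lay between −0.0047 and 0.0084 in every comparison of the 3 experiments. Fitted on the compared groups only, 7 members fell and 2 rose in NT2/D1-A4 and 15 fell and 1 rose in 2102EP-C1. With the trend of each library over transcript length and GC content removed, 11 fell and 1 rose in NT2/D1-A4 and 8 fell and 1 rose in 2102EP-C1. Scaling by library size alone gave 1 fall and 2 rises in NT2/D1-A4. These counts were not stable to single libraries: in NT2/D1-A4 they were 8 without Combination replicate 1 or 3 and 0 or 1 without any of the VC or cisplatin libraries, and in 2102EP-C1 11 without GSK-J4 replicate 3, 2 without GSK-J4 replicate 2 or Combination replicate 1 and 0 without VC replicate 1 or 2 or any cisplatin library.

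In the vector cells of the knockdown experiment, which were sequenced more deeply, cisplatin alone lowered 52 of the 76 members and raised 2, while 18.2% of all genes fell and 17.9% rose. The median change was −0.12. By structure 40 of 51 large subunit genes fell, and 12 of 25 small subunit genes. The falls were led by MRPL48 (−0.25, SE 0.04), MRPL54 (−0.23, SE 0.03) and MRPL58 (−0.21, SE 0.03). MRPL48 was at 4.58, 4.56 and 4.53 log2 CPM with pLKO.1 and between 4.26 and 4.35 after cisplatin, and MRPL54 went from 4.54, 4.48 and 4.57 to 4.31, 4.25 and 4.33. Neither gene's groups overlapped. MRPL20 and MRPL47, the genes called in the GSK-J4 experiments, fell here too, MRPL47 from 6.05, 6.04 and 6.02 to 5.91, 5.92 and 5.91. The rises were MRPL19 (0.07, SE 0.02, limma adjusted p = 0.0399) and MRPS6 (0.06, SE 0.02, limma adjusted p = 0.0201). The direction of MRPL19 turned, to −0.0401, with the length and GC trend removed. Over the 76 genes, the estimates for cisplatin alone correlated between the knockdown experiment and the GSK-J4 experiment of the same line with r = 0.53, and with NT2/D1-A4 with r = 0.52, a description across genes that share transcript length and base composition.

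Beside this fall stood a fall of other short transcripts. Of the members, 46 have transcripts under 1500 bases, and the 993 other protein-coding genes under that length with a mean over 3 log2 CPM had a median of −0.11 in the same comparison, against −0.0010 for 8267 longer ones. The part of length in the members' change was not tested as such. With the trend over length and GC content removed, 45 members fell and 2 rose.

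**Figure D1:**
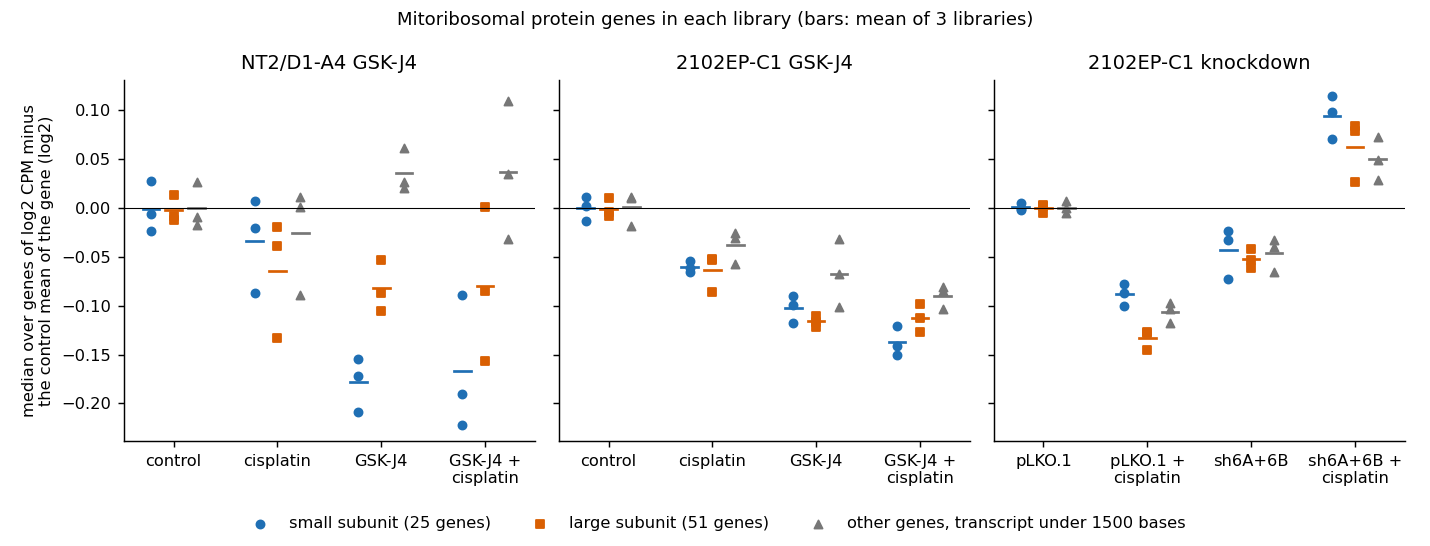
Each point is a library, and bars are the mean of 3 libraries. Its height is a median over genes of log2 CPM minus the gene's mean in control libraries. The genes are the 27 MRPS-named, the 49 MRPL-named or other short protein-coding genes. The legend calls the named sets small and large subunit and prints counts by structure, but the points were taken by name. In NT2/D1-A4 the MRPS-named medians of the GSK-J4 libraries lie between −0.21 and −0.16 and the MRPL-named medians between −0.11 and −0.05. In the knockdown experiment all series fall with cisplatin in pLKO.1 cells and rise with it in sh6A+6B cells.

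GSK-J4 alone lowered more members than it raised in both lines. In NT2/D1-A4, 33 of 76 fell and 4 rose, against 23.8% of all genes that fell and 24.5% that rose; the median change was −0.10. The falls covered both subunits: 13 of 25 small subunit genes fell with 1 rise (median −0.18), and 20 of 51 large subunit genes fell with 3 rises (median −0.09). The medians of single libraries were taken by name, with MRPS18A and MRPS30 counted as small. In each GSK-J4 library the median of the 27 MRPS-named genes (−0.16, −0.21 and −0.17) lay below that of the 49 MRPL-named genes (−0.05, −0.09 and −0.11). By names rather than structure, the small minus large difference of medians of the fold changes was −0.10. Mitochondria-specific small subunit proteins had 7 falls among 10 genes (median −0.23), and mitochondria-specific large subunit proteins 5 falls and 2 rises among 21 (median −0.02). These are descriptions of the members, with no test of one subunit against the other.

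MRPS17, an rRNA-binding protein of the small subunit with a bacterial relative, had the largest fall in NT2/D1-A4, from 5.65, 5.56 and 5.60 log2 CPM to 5.26, 5.23 and 5.29 (−0.34, SE 0.05, limma adjusted p = 9.03e-06). MRPS12, which lines the decoding site, went from 4.49, 4.50 and 4.66 to between 4.19 and 4.24 (−0.34, SE 0.06, limma adjusted p = 0.000118). All GSK-J4 libraries were below all control libraries for both genes. MRPL16, a large subunit protein near the tRNA sites, fell from 5.93, 5.90 and 5.92 to 5.62, 5.61 and 5.56 (−0.32, SE 0.05), again with no overlap. MRPS18A (−0.31, SE 0.07) and MRPL43 (−0.31, SE 0.07) completed the 5 largest falls. MRPL43 overlaps SEMA4G and MRPS18A overlaps RSPH9 in the annotation, and the strand setting of the count is not given, so reads of the pairs may mix.

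Rises with GSK-J4 in NT2/D1-A4 were led by MRPL58, a member of the release factor family that is built into the large subunit. Its libraries were at 5.24, 5.12 and 5.15 log2 CPM in control and at 5.59, 5.48 and 5.51 with GSK-J4, a rise of 28.2% (log2 0.36, SE 0.06, limma adjusted p = 3.78e-05). The other rises were smaller: MRPS10 0.15 (SE 0.06, limma adjusted p = 0.0373), MRPL11 0.12 (SE 0.05, limma adjusted p = 0.0456) and MRPL37 0.09 (SE 0.03, limma adjusted p = 0.0186). No member passed the study's further limit of a 1.3-fold change in this comparison.

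In 2102EP-C1, 41 of 76 members fell with GSK-J4 alone and 4 rose, against 16.0% of all genes that fell and 19.2% that rose (median of members −0.12). Here the subunits had like medians, −0.12 for the 25 small (14 falls, 2 rises) and −0.11 for the 51 large (27 falls, 2 rises). MRPS12 fell most, from 4.18, 4.31 and 4.31 log2 CPM to 3.83, 3.99 and 3.64, so that it fell by 26.7% (log2 −0.45, SE 0.07, limma adjusted p = 3.4e-05). It was the single member past the 1.3-fold limit, which 10.9% of genes passed in either direction. MRPS25 fell from 5.39, 5.38 and 5.45 to 5.05, 5.09 and 5.11 (−0.32, SE 0.05), and MRPL16 from 5.71, 5.69 and 5.68 to 5.34, 5.42 and 5.40 (−0.31, SE 0.05). Neither gene's groups overlapped. MRPL24 (−0.26, SE 0.06) and MRPL17 (−0.26, SE 0.04) followed. MRPS25 overlaps NR2C2 and MRPL24 overlaps HDGF in the annotation.

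MRPS35, a mitochondria-specific protein of the small subunit and one of the most abundant member transcripts, rose in 2102EP-C1 from 8.18, 8.21 and 8.17 log2 CPM to 8.36, 8.39 and 8.46 (0.22, SE 0.03, limma adjusted p = 7.8e-06). MRPL45, which anchors the large subunit at the inner membrane, rose from 6.62, 6.65 and 6.61 to 6.76, 6.74 and 6.84 (0.15, SE 0.04, limma adjusted p = 0.00148). MRPS10 rose from 5.67, 5.66 and 5.61 to 5.73, 5.74 and 5.76 (0.10, SE 0.04, limma adjusted p = 0.0489). In NT2/D1-A4 the MRPS35 estimate was 0.01 and that of MRPL45 0.10, and neither passed the test. The call of MRPS10 was lost in both lines once the length and GC trend was removed.

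Short transcripts did not fall with GSK-J4 in both lines. The median of other short protein-coding genes was 0.04 in NT2/D1-A4 (948 genes), where the members' was −0.10, and −0.07 in 2102EP-C1 (971 genes), where the members' was −0.12. Longer genes had medians of −0.0433 in NT2/D1-A4 (8006 genes) and 0.0014 in 2102EP-C1 (8124 genes). With the length and GC trend removed, 50 members fell and 1 rose in NT2/D1-A4, and 46 fell and 3 rose in 2102EP-C1. Scaling by library size alone moved the split in NT2/D1-A4 to 29 falls and 8 rises.

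**Figure D2:**
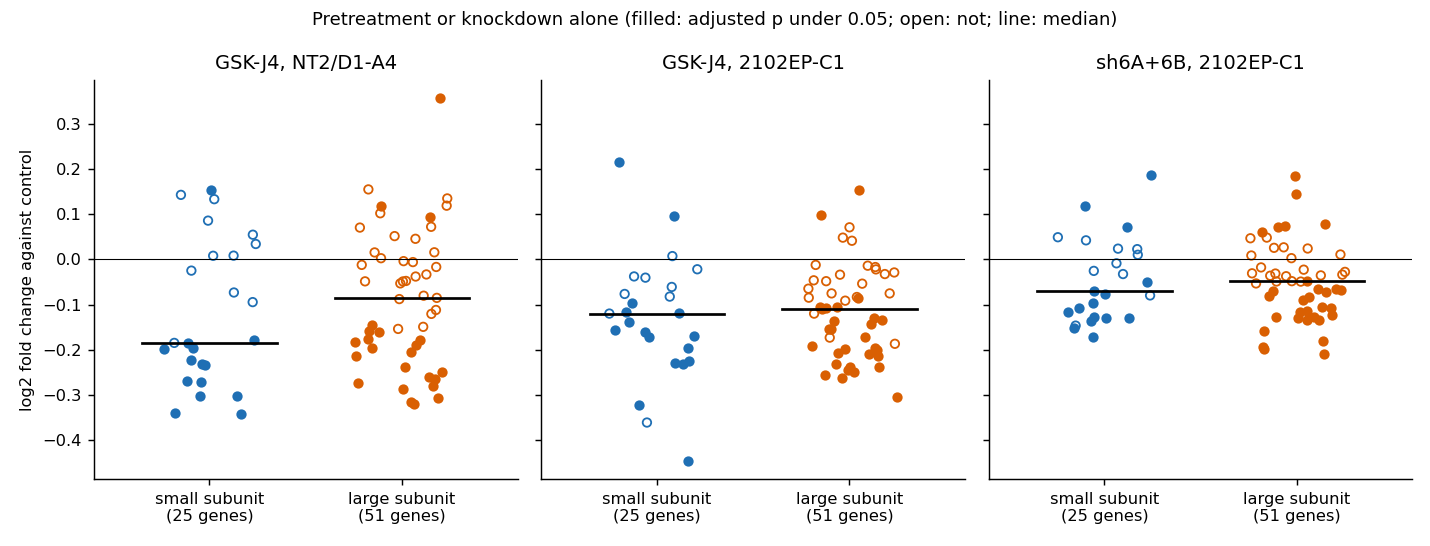
Each point is a gene's log2 fold change against control for GSK-J4 in either line or for sh6A+6B, small and large subunit genes apart, filled where the adjusted p is under 0.05, with a line at the median. Medians are −0.18 (small) and −0.09 (large) in NT2/D1-A4, −0.12 and −0.11 in 2102EP-C1, and −0.07 and −0.05 with sh6A+6B.

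Between the lines, 23 members fell with GSK-J4 in both, 69.7% of the 33 that fell in NT2/D1-A4 and 56.1% of the 41 that fell in 2102EP-C1. Among all 15663 genes measured in both lines, 10.2% were lower in both and 11.9% higher in both. These included MRPS12, MRPS17, MRPL16, MRPS25, MRPS26 and the stalk protein MRPL12. MRPS10 and MRPL37 rose in both, and no member was called in opposite directions. Across the 76 genes the estimates correlated with r = 0.41. The 2 lines have separate controls and were measured in separate library sets.

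**Figure D3:**
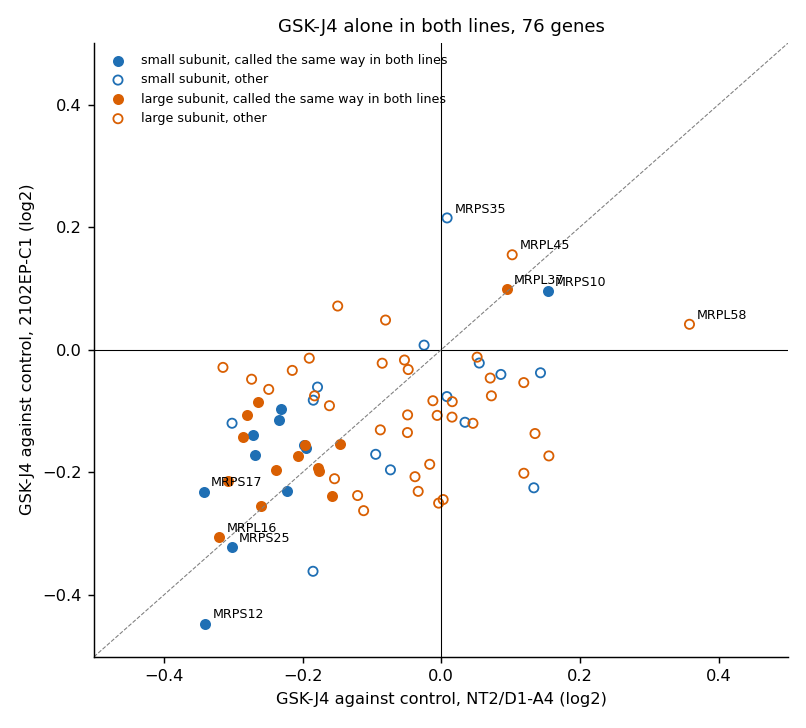
Each point is a member, with its log2 fold change for GSK-J4 alone in NT2/D1-A4 on the x axis and in 2102EP-C1 on the y axis; filled points were called the same way in both lines, and the dashed line is equality. Most points lie below zero on both axes, with MRPS12 at −0.34 and −0.45, while MRPL58 (0.36 and 0.04) and MRPS35 (0.01 and 0.22) rose in a single line.

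Knockdown of KDM6A and KDM6B alone lowered 36 members and raised 9 in 2102EP-C1, against 27.2% of all genes that fell and 25.6% that rose. The median change, −0.05, was smaller than with GSK-J4, and other short genes had the same median, −0.05. By structure 12 of 25 small and 24 of 51 large subunit genes fell, with 3 and 6 rises. MRPL41 fell most, from 3.37, 3.27 and 3.41 log2 CPM to 3.12, 3.22 and 3.08 (−0.21, SE 0.06, limma adjusted p = 0.00464). MRPL53 (−0.20, SE 0.06), MRPL58 (−0.19, SE 0.03), MRPL46 (−0.18, SE 0.04) and MRPS6 (−0.17, SE 0.02) followed. MRPS6 was at 6.30, 6.29 and 6.31 with pLKO.1 and at 6.13, 6.14 and 6.12 with sh6A+6B, and the SLC5A3 gene lies within its span. Scaling by library size alone gave 22 falls and 12 rises.

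MRPS31 rose most with knockdown, from between 4.26 and 4.32 log2 CPM to 4.47, 4.43 and 4.54 (0.19, SE 0.03, limma adjusted p = 4.32e-05), and MRPL30 rose from 6.25, 6.29 and 6.30 to 6.45, 6.49 and 6.45 (0.19, SE 0.02, limma adjusted p = 6.18e-08). MRPL1, a protein of the stalk through which spent tRNAs leave, rose by 0.14 (SE 0.03), MRPS10 by 0.12 (SE 0.03) and MRPL3, part of the peptidyl transferase region, by 0.07 (SE 0.02). All sh6A+6B libraries lay above all pLKO.1 libraries for MRPS31, MRPL30, MRPL1 and MRPS10.

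GSK-J4 and knockdown did not order the members alike. Across the 76 genes the knockdown estimates correlated with those of GSK-J4 with r = 0.08 in the same line and r = −0.15 in NT2/D1-A4. In 2102EP-C1, 19 members fell with both agents, 46.3% of those lowered by GSK-J4 and 52.8% of those lowered by knockdown (6.77% of all genes measured in both), while 5 fell with GSK-J4 and rose with knockdown and 1 did the opposite. Falls in all 3 experiments were called for 4.75% of the 15050 genes measured in each and for 11 members: MRPL4, MRPL20, MRPL34, MRPL38, MRPS12, MRPS16, MRPS17, MRPS23, MRPS26, MRPS27 and MRPS34. MRPS27, an RNA-binding pentatricopeptide repeat protein, changed by −0.23, −0.12 and −0.05 in the order NT2/D1-A4, 2102EP-C1 and knockdown. A rise in all 3 was called for MRPS10 alone (0.15, 0.10 and 0.12) and for 4.86% of genes, and the MRPS10 call was lost in both GSK-J4 experiments with the length and GC trend removed. MRPL58 rose in NT2/D1-A4 (0.36), was at 0.04 in 2102EP-C1 without passing the test and fell with knockdown (−0.19). In none of the 3 were MRPL10, MRPL40, MRPL48, MRPL49, MRPL52, MRPS11, MRPS22 and MRPS28 called.

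In cells that also received cisplatin, GSK-J4 again lowered more members than it raised. In NT2/D1-A4, 27 fell and 8 rose, against 24.2% and 24.1% of all genes, with a median of −0.03. MRPS25 fell from 4.88, 4.86 and 4.92 log2 CPM with cisplatin to 4.40, 4.52 and 4.48 with both agents (−0.42, SE 0.05), and MRPS12 from 4.53, 4.72 and 4.65 to a mean of 4.24 ± 0.06 (SD, n = 3) with both (−0.40, SE 0.06). MRPS26 (−0.36, SE 0.06), MRPS17 (−0.31, SE 0.05) and MRPL16 (−0.26, SE 0.05) were the next falls. MRPL58 rose from between 4.93 and 5.12 to 5.40, 5.49 and 5.58 (0.47, SE 0.06). MRPS33 (0.29), MRPL22 (0.25), MRPL9 (0.22) and MRPL45 (0.21) rose less. MRPL58, MRPS12 and MRPS25 passed the 1.3-fold limit, as did 20.7% of genes. Scaling by library size alone gave 23 falls and 12 rises. The 3 Combination libraries of NT2/D1-A4 were spread apart. Against control, their medians over MRPL-named genes were −0.16, −0.08 and 0.0006, and those over other short genes −0.03, 0.03 and 0.11.

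In 2102EP-C1 the same contrast gave 32 falls and 13 rises, against 23.9% and 25.5% of all genes, with a median of −0.05. Other short genes had a median of −0.06 and longer ones 0.01. MRPS28 had the largest fall (−0.66, SE 0.17, limma adjusted p = 0.00217), at 0.97, 0.80 and 1.11 log2 CPM with cisplatin and 0.14, 0.39 and 0.37 with both agents, on the lowest read counts among the members. MRPS12 fell from 4.27, 4.17 and 4.21 to 3.56, 3.60 and 3.78 (−0.57, SE 0.07), MRPL41 by 0.37 (SE 0.08), MRPL14 by 0.37 (SE 0.05) and MRPS26 by 0.34 (SE 0.05). MRPL1 rose from 5.35, 5.27 and 5.46 to 5.78, 5.81 and 5.70 (0.40, SE 0.06), MRPS35 from 8.18, 8.20 and 8.17 to 8.58, 8.52 and 8.48 (0.34, SE 0.03), MRPL45 by 0.28 (SE 0.04), MRPS10 by 0.22 (SE 0.04) and MRPS33 by 0.16 (SE 0.04). MRPS28, MRPS12 and MRPL1 passed the 1.3-fold limit, as did 19.3% of genes.

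Both agents against control gave 30 falls and 8 rises in NT2/D1-A4 (26.5% and 27.5% of all genes) and 42 falls and 7 rises in 2102EP-C1 (25.6% and 27.4%). In NT2/D1-A4 the largest falls were in the small subunit: MRPS25 from 5.05, 4.98 and 4.92 log2 CPM to 4.40, 4.52 and 4.48 (−0.52, SE 0.05), MRPS31 (−0.42, SE 0.06) and MRPS26 (−0.34, SE 0.06). MRPS25 and MRPS31 passed the 1.3-fold limit, as did 25.4% of genes. MRPL58 (0.32), MRPS33 (0.32) and MRPS6 (0.23) rose most. With the length and GC trend removed, 51 members fell and 4 rose. In 2102EP-C1, MRPS28 (−0.66), MRPS12 (−0.62) and MRPS26 (−0.46) fell most and MRPS35 (0.34), MRPL45 (0.26) and MRPL1 (0.26) rose most. The 1.3-fold limit was passed by 10 members, all lower, and by 22.6% of genes: MRPL12, MRPL16, MRPL17, MRPL23, MRPL41, MRPL53, MRPL55, MRPS12, MRPS26 and MRPS28. MRPL12, the stalk protein that also occurs free in the matrix, was at 6.73, 6.72 and 6.66 in control and at 6.26, 6.28 and 6.33 with both agents.

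Within GSK-J4-treated cells, cisplatin gave 1 call in NT2/D1-A4 and 17 in 2102EP-C1. MRPS25 fell in NT2/D1-A4 (−0.21, SE 0.05, limma adjusted p = 0.0487) as the single call, where 0.548% of genes fell and 0.712% rose. In 2102EP-C1, 9 members fell and 8 rose, against 8.1% and 7.64% of genes. MRPL41 fell most (−0.26, SE 0.08) and MRPL1 rose most (0.21, SE 0.06), both with libraries that overlapped between the groups. Among called members without overlap, the largest falls were MRPS26 (−0.23, SE 0.05), MRPL12 (−0.18, SE 0.04) and MRPL38 (−0.18, SE 0.05), and the largest rises MRPS33 (0.18, SE 0.04), MRPL32 (0.13, SE 0.04) and MRPS6 (0.13, SE 0.03). This count rested on single libraries: it was 30 without GSK-J4 replicate 3 (16 falls and 14 rises), 4 without GSK-J4 replicate 1 and 5 without GSK-J4 replicate 2 or Combination replicate 1. With the length and GC trend removed it was 6 (4 falls and 2 rises). The call of MRPS25 in NT2/D1-A4 was lost without any of 11 of the 12 libraries, the exception being Combination replicate 3.

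The interaction, the change with cisplatin after GSK-J4 minus the change with cisplatin without it, was called for no member in NT2/D1-A4, where it was called for 0.0% of genes upward and 0.0426% downward; 4 members had an unadjusted limma p under 0.05, and limma with voom weights on recovered reads also called 0. In 2102EP-C1 it was called for MRPL1 (0.35, SE 0.08, limma adjusted p = 0.016) and MRPL13 (0.21, SE 0.06, limma adjusted p = 0.0394), both upward, with 0.734% of genes called upward and 1.64% downward. MRPL1 was at 5.51, 5.47 and 5.54 log2 CPM in control, 5.35, 5.27 and 5.46 with cisplatin, 5.47, 5.48 and 5.72 with GSK-J4 and 5.78, 5.81 and 5.70 with both. The third GSK-J4 library lay above the other two for MRPL1. The count was 19 without GSK-J4 replicate 3, and 0 or 1 without VC replicate 1, 2 or 3, cisplatin replicate 2 or 3, GSK-J4 replicate 1 or 2 or Combination replicate 2.

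In the knockdown experiment cisplatin raised 51 members in sh6A+6B cells and lowered 1, MRPS5, against 22.1% and 22.7% of all genes (median of members 0.12), where it had lowered 52 and raised 2 in pLKO.1 cells. The interaction was called upward for 67 members and downward for none, against 17.2% and 18.0% of genes, with a median of 0.23. It held 21 of 25 small and 46 of 51 large subunit genes, and 38 of the 45 of the bacterial class and 29 of the 31 classed as mitochondria-specific. The 6 past the 1.3-fold limit (3.77% of genes) were MRPS15, MRPL43, MRPL54, MRPS12, MRPL13 and MRPL48.

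MRPS15, an rRNA-binding protein of the small subunit, had the largest interaction (0.47, SE 0.03, limma adjusted p = 1.13e-11). It was at 6.72, 6.76 and 6.74 log2 CPM with pLKO.1, 6.55, 6.52 and 6.55 after cisplatin, 6.57, 6.60 and 6.60 with sh6A+6B and 6.87, 6.85 and 6.84 with sh6A+6B and cisplatin. Cisplatin thus took all vector libraries below their controls and all knockdown libraries above theirs. MRPL43 (0.41, SE 0.05) went from 4.91, 4.83 and 4.85 to 4.65, 4.72 and 4.72 in vector cells and from 4.79, 4.82 and 4.82 to 5.09, 5.09 and 4.99 in knockdown cells. MRPL54 (0.41, SE 0.05) went from 4.51, 4.55 and 4.56 to 4.71, 4.74 and 4.69 in knockdown cells.

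Sorted by both tests, 35 members fell with cisplatin in vector cells and rose in knockdown cells, 6 of them in the small subunit and 29 in the large by structure. Over all 16459 genes, 5.04% had these opposite calls and 4.62% the reverse. A further 16 fell in vector cells without a call in knockdown cells, and 15 rose in knockdown cells without a call in vector cells. MRPS5 fell in both, from 6.00, 6.02 and 5.97 to 5.82, 5.87 and 5.80 in vector cells and from 5.88, 5.89 and 5.93 to 5.74, 5.77 and 5.78 in knockdown cells. MRPS6 rose in both, more in knockdown cells (0.29, SE 0.02). MRPL19, whose direction turned to −0.0401 in vector cells with the length and GC trend removed, was called higher there and had no call in knockdown cells, and MRPS2, MRPS9, MRPS25, MRPS28, MRPS31, MRPL42 and MRPL55 were called in neither. Rises in knockdown cells were led by MRPL49 (0.30, SE 0.03), from 5.71, 5.81 and 5.73 to 6.04, 6.09 and 6.01, with MRPS6 next and MRPL32 (0.27, SE 0.03) after it. The SYVN1 gene overlaps MRPL49 in the annotation.

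**Figure D4:**
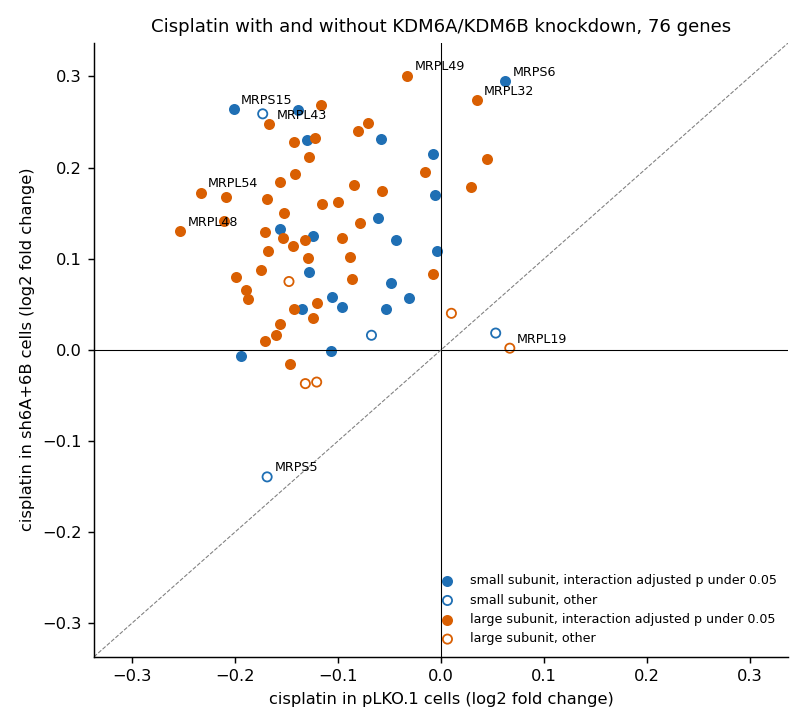
Each point is a member, with its log2 fold change for cisplatin in pLKO.1 cells on the x axis and in sh6A+6B cells on the y axis; filled points have an interaction adjusted p under 0.05, and the dashed line is equality. The cloud lies in the upper left, below zero for vector cells (median −0.12) and above zero for knockdown cells (median 0.12), with MRPS5 negative on both axes.

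Other short transcripts moved the same way. The 993 other protein-coding genes under 1500 bases had a median of −0.11 for cisplatin in vector cells, 0.09 for cisplatin in knockdown cells and 0.19 for the interaction, beside −0.12, 0.12 and 0.23 for the members, and longer genes had −0.0010, −0.0190 and −0.0210. Within the members, the interaction had a median of 0.25 for the 46 with transcripts under 1500 bases (42 called) and 0.18 for the 30 longer ones (25 called). With the length and GC trend removed, the interaction was called upward for 48 members and downward for none, the rise in knockdown cells for 37 (7 falls) and the fall in vector cells for 45 (2 rises). The part of transcript length in these results was not otherwise tested.

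Among cisplatin-treated cells, knockdown raised 63 members and lowered MRPS5 (−0.07, SE 0.02), against 30.9% and 30.7% of all genes, with a median of 0.18; with the length and GC trend removed, 46 rose and 8 fell. MRPL54 (0.42, SE 0.03), MRPL48 (0.41, SE 0.04) and MRPL13 (0.39, SE 0.02) passed the 1.3-fold limit, as did 15.2% of genes, and MRPL1 and MRPL43 rose by 0.36 each. MRPL13, which binds the large subunit rRNA, was at 6.11, 6.13 and 6.14 log2 CPM with pLKO.1 and cisplatin and at 6.51, 6.52 and 6.51 with sh6A+6B and cisplatin. Against untreated pLKO.1 cells, knockdown with cisplatin raised 39 members and lowered 8, against 30.9% and 31.7% of genes (median 0.07). With the length and GC trend removed the split was 26 rises and 20 falls. MRPL30 (0.36), MRPL1 (0.28) and MRPL13 (0.27) rose most, and MRPS5 (−0.24), MRPS34 (−0.14) and MRPL4 (−0.12) fell most.

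Members with a known place in the ribosome are given here whatever their values. Of the stalk base and stalk proteins MRPL10, MRPL11 and MRPL12, which recruit the elongation factors, MRPL12 fell with GSK-J4 in both lines (−0.16 and −0.24), MRPL11 rose in NT2/D1-A4 (0.12) and fell with knockdown (−0.13), and MRPL10 was at −0.05, −0.03 and −0.03 without a call. All 3 fell with cisplatin in vector cells (−0.09, −0.17 and −0.17) and had positive interactions (0.19, 0.33 and 0.18). MRPL3 fell with GSK-J4 in both lines (−0.26 and −0.09) and rose with knockdown. MRPL44, which carries a ribonuclease III fold, fell in 2102EP-C1 with GSK-J4 (−0.13) and with knockdown (−0.07) and was at −0.09 in NT2/D1-A4 (limma adjusted p = 0.082). MRPS22, a mitochondria-specific small subunit protein, was at 0.01, −0.08 and −0.03 without a call, yet had an interaction of 0.29 (SE 0.04) in the knockdown experiment.

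The 3 paralogs named MRPS18 occupy different sites. MRPS18A, in the large subunit, fell with GSK-J4 in NT2/D1-A4 (−0.31) and was at −0.03 both with GSK-J4 in 2102EP-C1 and with knockdown, without a call. MRPS18B fell with GSK-J4 in both lines (−0.27 and −0.14) and was at 0.02 with knockdown. MRPS18C was at 0.13 in NT2/D1-A4 and −0.03 with knockdown without a call, and fell in 2102EP-C1 with GSK-J4 (−0.23, limma adjusted p = 0.043). MRPS30, the other large subunit protein with a small subunit name, fell in NT2/D1-A4 (−0.21) and rose with knockdown (0.06). The gene once listed as MRPS36 is KGD4 in RefSeq and outside the symbol rule; it was at 0.02 and −0.06 with GSK-J4 without a call.

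**Figure D5:**
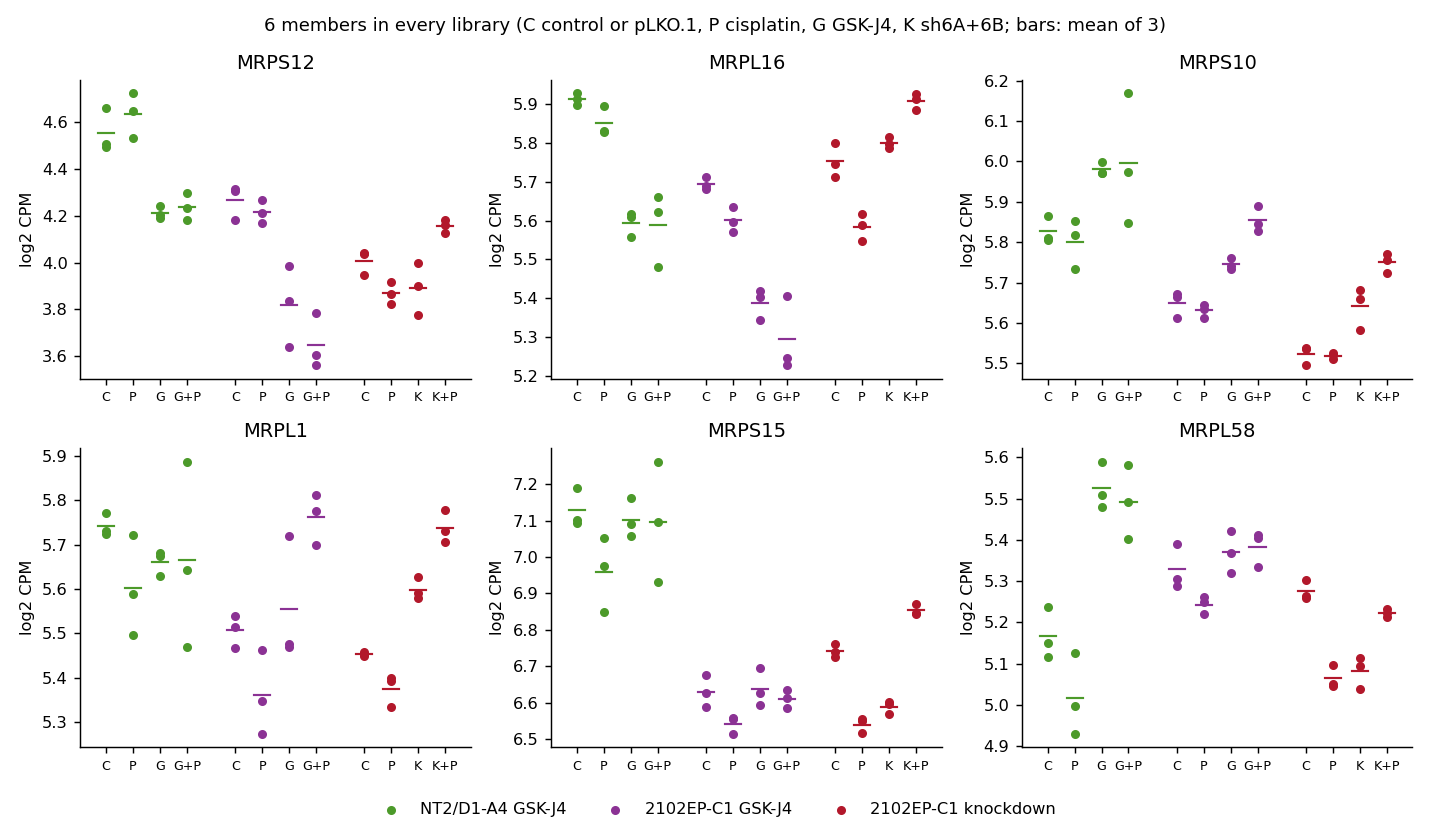
Log2 CPM of 6 members in every library, by experiment and arm, with bars for the mean of 3 libraries. MRPS12 and MRPL16 lie lower in all GSK-J4 arms, MRPS10 lies higher in the GSK-J4 and sh6A+6B arms, MRPL1 is highest where both agents or knockdown and cisplatin were given in 2102EP-C1, MRPS15 crosses between the vector and knockdown arms, and MRPL58 is higher with GSK-J4 in NT2/D1-A4 alone.

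Other genes of mitochondrial translation are read against the shares of all genes called: 23.8% fell and 24.5% rose with GSK-J4 in NT2/D1-A4, 16.0% and 19.2% in 2102EP-C1, 27.2% and 25.6% with knockdown, and 18.0% and 17.2% in the knockdown interaction. Of 16 translation factors, 10 fell and none rose with GSK-J4 in NT2/D1-A4, among them GUF1 (−0.35), the elongation factor TUFM (−0.35) and the ribosome recycling factor MRRF (−0.26). In 2102EP-C1, 5 fell and 1 rose, with the mRNA-binding SLIRP (−0.28), TSFM (−0.24) and TUFM (−0.14) the largest. With knockdown, 4 fell and 3 rose, near the shares of all genes, with MRRF (0.16) and GUF1 (0.13) higher and SLIRP (−0.14) lower. Of 27 assembly factors, 11 fell and 3 rose in NT2/D1-A4 and 12 fell and 2 rose in 2102EP-C1, with the rRNA methyltransferase MRM1 the largest fall in both (−0.48 and −0.55); MTG2 (−0.46) and MRM3 (−0.39) came next in NT2/D1-A4, and NGRN rose (0.36) and RBFA fell (−0.25) in 2102EP-C1. With knockdown 9 fell and 5 rose, the GTPases MTG1 (0.23), GTPBP10 (0.19) and MTG2 (0.18) being the largest changes. In the knockdown interaction, 15 assembly factors rose and 1 fell, and 7 translation factors rose and 1 fell. The 5 mitoribosomal proteins outside the symbol rule (DAP3, PTCD3, AURKAIP1, CHCHD1 and GADD45GIP1) gave 5 upward interactions of 5 and 4 falls with cisplatin in vector cells. With GSK-J4, PTCD3 fell in both lines (−0.23 and −0.20), and CHCHD1 rose in NT2/D1-A4 (0.18) and fell in 2102EP-C1 (−0.15), where GADD45GIP1 also fell (−0.17). With knockdown, CHCHD1 (−0.13) and GADD45GIP1 (−0.10) fell and PTCD3 rose (0.12).

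Of 9 nuclear regulators of mitochondrial genes, 6 fell and 1 rose with GSK-J4 in NT2/D1-A4, where 23.8% of all genes fell, and 5 fell and 1 rose in 2102EP-C1, where 16.0% fell. PPARGC1B (−0.61 and −0.36) and ESRRA (−0.35 and −0.36) fell in both lines. NRF1 fell in NT2/D1-A4 (−0.27) and with knockdown (−0.19), and was at −0.13 in 2102EP-C1 with GSK-J4 (limma adjusted p = 0.0653). GABPA, whose ETS motif is noted above, fell in both lines (−0.22 and −0.13) and rose with knockdown (0.11), where PPARGC1B (−0.24) and GABPB1 (−0.14) fell among 4 falls and 1 rise. With knockdown the GABPA groups overlapped, at 5.53, 5.61 and 5.67 log2 CPM with pLKO.1 and 5.83, 5.64 and 5.68 with sh6A+6B. MYC rose in NT2/D1-A4 (0.16) and PPARGC1A in 2102EP-C1 (0.56). Of 7 measured genes of the mitochondrial transcription machinery, 6 fell in NT2/D1-A4 (TWNK −0.35, POLG2 −0.31 and POLRMT −0.23 the largest) and 5 in 2102EP-C1 (POLG2 −0.31, TFB2M −0.21 and POLRMT −0.19), with no rise in either. With knockdown TWNK rose (0.16) and TEFM fell (−0.14).

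The RNAs that these ribosomes are built on and translate, 13 mRNAs and 2 rRNAs of the mitochondrial genome, did not follow the nuclear members in the knockdown experiment. Libraries were made with a kit for mRNA, and how it captured these RNAs was not measured. The counts of the 2 rRNAs may thus not give the rRNA content. With cisplatin in pLKO.1 cells all 15 rose (median 0.26, from 0.20 to 0.49), where 52 members fell, and with knockdown alone all 15 rose (median 0.36). Of all genes, 17.9% and 25.6% rose in these comparisons. All 15 had negative interactions (median −0.38), against 18.0% of all genes, where 67 members had positive ones. With cisplatin alone in the GSK-J4 experiment of the same line, however, all 15 fell (median −0.46, from −0.63 to −0.30), against 1.02% of all genes. The members' median there was also below zero, at −0.06. GSK-J4 among cisplatin-treated cells raised 14 of the 15 (median 0.66), against 25.5% of all genes, while the members' median was −0.05. The interaction there had a median of 0.66 for the 15 and 0.06 for the members. In NT2/D1-A4, cisplatin alone gave a median of −0.41 with no call, beside −0.06 for the members. GSK-J4 raised 4 of the 15, near the 24.5% of all genes that rose, led by ND2 (0.92), ND1 (0.86) and RNR2 (0.41). The 15 shifted together between the control libraries there. For instance, ND1 was at 9.28, 9.60 and 8.62 log2 CPM and COX1 at 10.19, 10.49 and 9.59. Their calls are therefore not separate counts. With GSK-J4 in 2102EP-C1, 5 rose and 3 fell, where 19.2% of all genes rose and 16.0% fell, with COX3 (−0.55), RNR1 (0.44) and COX2 (−0.42) the largest. With knockdown RNR1 (0.55), ATP6 (0.48) and ND6 (0.48) rose most. The 2 experiments in 2102EP-C1 thus differed in direction for these RNAs under cisplatin alone; the part of library preparation or of viral transduction in that was not tested.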

How the data were processed

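RNA of 36 libraries (3 experiments of 12, 4 arms of 3, labelled biological triplicates) was measured. The study prepared them with the TruSeq Stranded mRNA kit. Per the study's methods, Trimmomatic was used for trimming, STAR for alignment (GRCh38) and featureCounts for gene counts, and the authors dropped genes that did not exceed 0.5 CPM in 2 or more samples. Their versions and the strand setting of the count are not given in the sources used here. The deposited values are log2 CPM with TMM scaling and a prior count of 3 added. Reads recovered from them were whole (within 0.05) for 100.0% of values under 50 reads.

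Each experiment was fitted over all its genes with limma (version 3.58.1, limma-trend, group means, 12 libraries, R 4.3.3), two-sided, with Benjamini-Hochberg adjustment and calls at adjusted p under 0.05. Scripts were tested on simulated data, with a spread that was set and not taken from these libraries. Of planted log2 changes of 0.4, 42% (NT2/D1-A4), 35% (2102EP-C1 with GSK-J4) and 47% (knockdown) were called, and 100% of those of 1. In the measured libraries smaller changes were called, such as MRPS6 at 0.06 (SE 0.02) with cisplatin in pLKO.1 cells. MRPL37 was called at 0.09 (SE 0.03) with GSK-J4 in NT2/D1-A4. The simulated shares are therefore not the shares of changed members that were called. A member without a call may still have changed. Tables and figures used Python 3.11.15, numpy 2.4.6, pandas 2.3.3 and matplotlib 3.10.9. Transcript length and GC content came from the Ensembl canonical transcript of GENCODE 44.

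The members, gene lists and tests were chosen with earlier results of these data known. Named in each comparison were up to 5 highest rises and 5 largest falls (3 and 3 outside pretreatment alone and pretreatment within cisplatin) among called members whose libraries did not overlap, members chosen by role, the members with the highest and lowest levels per length, and up to 3 called genes of each list with the largest change after pretreatment alone. Others named, such as those past the 1.3-fold limit, were chosen after their values were seen. Groups of 3 libraries limit the precision, and p-values measure the spread between cultures of a single line.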

Additional observations from a re-analysis of the deposited data

Results flagged for a closer look

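The response to cisplatin differed between pretreated and other cells, by the interaction term of the limma fit, for 67 members in the knockdown experiment, all upward, where 17.2% of all genes were called upward and 18.0% downward. With the trend over transcript length and GC content removed, it was called for 48 members, all upward. The largest interactions there were MRPS15 (0.4657), MRPL43 (0.4146) and MRPL54 (0.4059), on the log2 scale. In 2102EP-C1 with GSK-J4 the same term was called for 2 members, MRPL1 (0.3522) and MRPL13 (0.214), where 0.734% of all genes were called upward and 1.64% downward, both also called upward in the interaction of the knockdown experiment. No group was tested for a library far from the others, since each held 3 libraries.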

How the results depend on the processing

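Over the named genes, directions held under every alternative run, other than for MRPL19 with cisplatin in pLKO.1 cells, which was at −0.0401 once the length and GC trend was removed, with or without the replicate block. Of 95 pairs of a named gene and a comparison, 69 kept the call under every alternative and 26 lost it under at least 1. Counts under a stricter limit of 1.3-fold were, in the order cisplatin alone, pretreatment alone, both, cisplatin within pretreated, pretreatment within cisplatin and interaction, 0, 0, 2, 0, 3 and 0 in NT2/D1-A4, 0, 1, 10, 0, 3 and 0 in 2102EP-C1, and 0, 0, 0, 0, 3 and 6 in the knockdown experiment. In NT2/D1-A4, cisplatin alone called 9 members with only the compared groups fitted, 12 with the length and GC trend removed and 11 with the replicate block added to that, against 2. Cisplatin within pretreated cells, 1 in the report, called 0 with only the compared groups, the replicate block, voom weights or library size alone, and 2 with the trend removed, with or without the block. In 2102EP-C1, cisplatin alone called 16 with only the compared groups and 9 with the trend removed, with or without the block, against 1; cisplatin within pretreated cells called 5 with only the compared groups, 6 with the trend removed and 5 with the block added, against 17. Median-of-ratios scaling, a prior count of 0.5 and a filter at a mean log2 value over 1 moved no count of calls by over 1.5 times. The interaction has no fit with fewer groups. The cause of these moves was not tested.

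The small minus large difference of medians by name after pretreatment alone was −0.1046 in NT2/D1-A4, 0.0017 in 2102EP-C1 and −0.0009 with knockdown; with the trend removed it was −0.0157 in 2102EP-C1 and 0.0201 with knockdown, with or without the block, and by structure −0.0206 with knockdown. The replicate numbers were not taken to pair the libraries: the median correlation of same-numbered deviations was −0.02, −0.01 and −0.00, and no arms compared directly had all 3 same-numbered correlations over 0.1. In the knockdown experiment, pLKO.1 with cisplatin and sh6A+6B, arms that meet only in the interaction, had 0.41, 0.10 and 0.15. There sh6A+6B without and with cisplatin had 0.48, 0.50 and 0.07, and their different-numbered libraries went down to −0.54. In NT2/D1-A4, cisplatin and Combination, compared directly, had 0.33, 0.08 and 0.48, and their different-numbered libraries went down to −0.47. Whether these arms were paired was not tested beyond the block. The block alone changed no other count by over 1.5 times. Same-numbered libraries of the experiments ranged in r from −0.30 to 0.50. Leaving out each library in turn gave, in the order of comparisons above, 0 to 8, 30 to 44, 32 to 45, 0 to 2, 29 to 40 and 0 to 0 calls in NT2/D1-A4, 0 to 11, 31 to 45, 43 to 54, 4 to 30, 40 to 48 and 0 to 19 in 2102EP-C1, and 46 to 56, 32 to 46, 45 to 52, 47 to 54, 57 to 66 and 61 to 68 with knockdown; the small minus large difference ranged from −0.127 to −0.0988, from −0.0152 to 0.0182 and from −0.0036 to 0.0267. The GSK-J4 experiments were sequenced less deeply than the knockdown experiment, and MRPS28 had the fewest reads.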
